A study of Mus musculus with 4 samples.

Results

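The clustered protocadherins are neural cell surface proteins of the cadherin superfamily, encoded in 3 neighbouring gene clusters called alpha, beta and gamma. They were taken here by symbol alone, as every row of the deposited table named Pcdha, Pcdhb, Pcdhga, Pcdhgb or Pcdhgc (with an optional further c) plus a number, which gave 58 of 53379 genes. Of these, 14 belong to the alpha cluster, 22 to the beta cluster and 22 to the gamma cluster. The transcripts were measured in RNA immunoprecipitated from the V-SVZ, the ventricular and subventricular germinal tissue of the forebrain, which was taken from wild-type CD1 mice aged 7 or 8 postnatal days (P7/P8). An antibody against Cpeb4, a cytoplasmic polyadenylation element-binding protein that regulates poly(A) tails and translation through 3′ untranslated regions, was compared with control IgG to ask which transcripts come down with the protein. Each of 2 experiments gave 1 Cpeb4 and 1 IgG library, so there were 2 libraries per antibody. All libraries came from the same tissue, genotype, strain and age, and no input RNA is used here. The labels do not say whether the experiments used separate animals or how many animals a lysate held, so the spread behind each p-value is that between libraries and may be technical.

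In the alpha and gamma clusters, each member has its own large variable exon, which encodes the extracellular cadherin repeats, the transmembrane segment and part of the cytoplasmic tail. This exon is spliced to a short set of constant exons that all members of the cluster share, so that alpha transcripts end in a common 3′ untranslated region, and gamma transcripts in another. Beta genes have no shared exons, and each carries its own 3′ end. Neurons choose among these promoters, and the resulting sets of proteins bind like sets on other cells, a recognition system known for its part in dendrite self-avoidance, axon spacing and interneuron survival. The C-type members at the 3′ ends of the alpha and gamma arrays (Pcdhac1, Pcdhac2, Pcdhgc3, Pcdhgc4 and Pcdhgc5) are regulated differently from the stochastically chosen members.

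The clusters lie in a row on chromosome 18 (RefSeq, GRCm38.p6). The alpha array starts with Pcdha1 at 36930285, the beta array runs from the start of Pcdhb1 at 37264998 to the end of Pcdhb22 at 37521419, and the gamma array runs from the start of Pcdhga1 at 37661775 to the end of Pcdhgc5 at 37841873. The symbol Pcdha11 stands on 2 rows of the table with different Ensembl identifiers, and the 58 rows therefore hold 57 symbols. These rows are named here by identifier, and which of them matches the RefSeq gene of that name was not settled. The libraries held 22486721 to 35037171 reads on the 30361 genes for which the authors give a mean level. These reads were worked out from the smallest steps in FPKM, the deposited unit (fragments per gene length and library depth). A member had between 9 and 2980 reads in a library. The same steps gave the gene length behind each FPKM: 5206 to 5888 bases for alpha, 2588 to 8695 for beta and 4615 to 5777 for gamma members. The alpha member with the fewest reads had 19 in a library and the gamma member with the fewest had 21, so no more than that number of reads from shared exons can have been counted for every member of those clusters. If shared exons are within the lengths but not in the counts, the FPKM of alpha and gamma members are too low beside those of beta members. Levels are therefore compared mainly within a cluster, where this affects all members alike. The library kit does not mark strand, so antisense transcripts within the arrays cannot be told apart from the members. Paralogs with stretches of like sequence can also lose or exchange reads, so the values of single members are uncertain to that extent.

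The members themselves were chosen by symbol, but the family was selected on measured values, the FPKM of these same Cpeb4 and IgG libraries. The values of that comparison are therefore given as a description, and the counts of members are not evidence about the family. Differences between the antibodies come from limma over all 15745 genes with at least 1 FPKM in at least 2 libraries, on log2(FPKM + 1). A gene was called at a Benjamini-Hochberg adjusted p under 0.05. At the low levels of most members this scale shrinks a difference, so the plain ratio of mean FPKM is given beside it.

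With the authors' scaling, alpha transcripts had the largest Cpeb4 over IgG ratios of the 3 clusters, beta transcripts were intermediate and gamma transcripts had the smallest. Over all 14 alpha members the median ratio was 2.44-fold (log2 1.29, from -0.74 to 1.78). Over all 22 beta members it was 1.81-fold (log2 0.86, from 0.12 to 1.94) and over all 22 gamma members 1.24-fold (log2 0.31, from -0.54 to 0.76). The median log2 ratio was 0.23 over all tested genes, a set that leaves out genes under the filter. The Cpeb4 and IgG values did not overlap, with Cpeb4 higher, in 13 alpha, 19 beta and 16 gamma members, against 31.5% of the 30361 genes with recovered reads. They did not overlap in the other direction for Pcdha8 and Pcdhgb4, against 39.1% of those genes. That set includes many genes under the filter, which 42 of the 58 members passed. The shares over the tested genes alone are not given here.

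**Figure D1:**
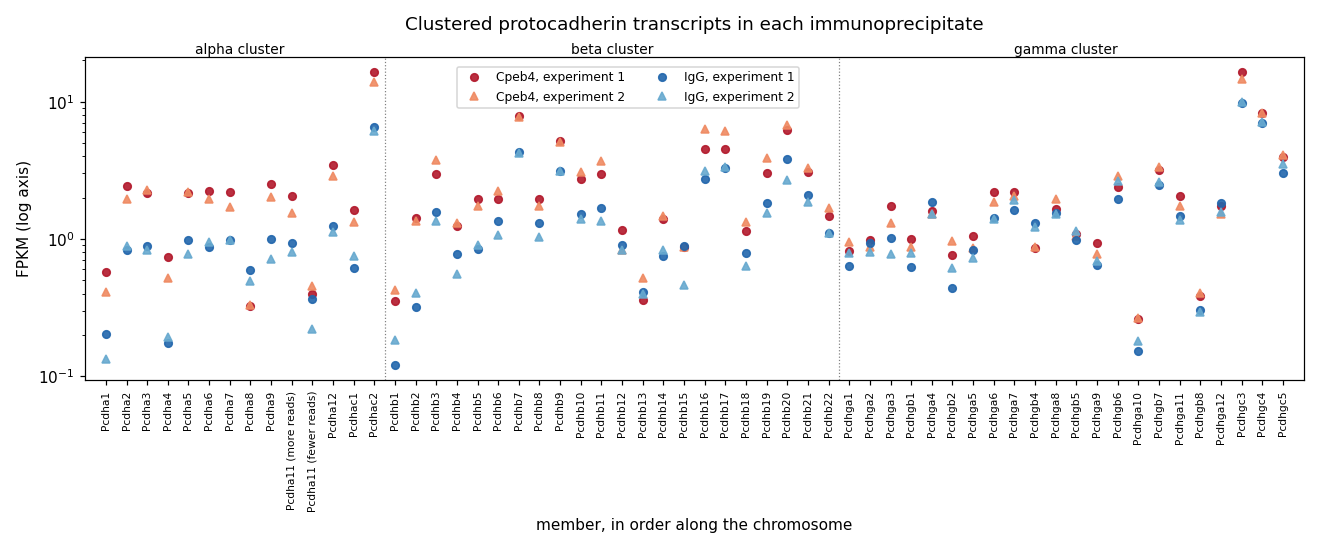
FPKM (log axis) of all 58 members, in order along the chromosome, in each of the 4 libraries (reds, Cpeb4; blues, IgG; circles, experiment 1; triangles, experiment 2). Cpeb4 points lie above IgG points for 13 of 14 alpha, 19 of 22 beta and 16 of 22 gamma members, and Pcdhac2 and Pcdhgc3 are the highest members. The Pcdha11 rows are marked by which has more reads.

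Of the 58 members, 42 passed the filter and were tested. Of these 26 were called higher, 0 lower and 16 were not called, where 38.8% of all tested genes were called higher, 11.6% lower and 50.4% in either direction. At an unadjusted p under 0.05, 29 were higher and 0 lower, against 42.1% and 13.8% of all tested genes. In limma-voom on recovered reads, 35 of the 58 members were higher and 2 lower, against 21.7% and 16.2% of 30361 genes. The members called higher were 10 of 10 alpha, 15 of 18 beta and 1 of 14 gamma members tested. The filter bears on these counts: 7 of the alpha and 5 of the beta members tested passed it only through the Cpeb4 libraries, in which they were high, and 1 gamma member, Pcdhgb4, only through the IgG libraries. The 16 members outside the test were 4 alpha, 4 beta and 8 gamma members. In the authors' deposited table, which gives an adjusted p for all 58, 12 of 14 alpha, 13 of 22 beta and 1 of 22 gamma members were higher at an adjusted p under 0.05 and 0 were lower, where 21.7% of its genes were higher and 4.93% lower.

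**Figure D2:**
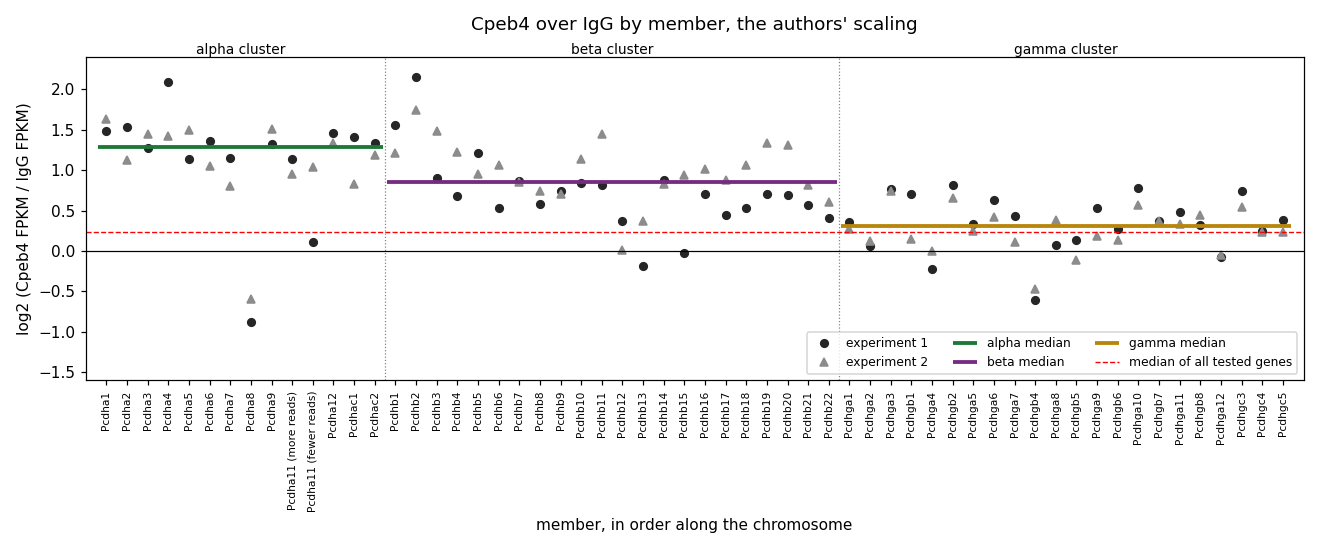
Log2 ratio of Cpeb4 to IgG FPKM for each member in experiment 1 (black circles) and experiment 2 (grey triangles), with no pseudocount and the authors' scaling. Coloured lines are cluster medians (1.29 alpha, 0.86 beta, 0.31 gamma) and the dashed line is the median of all tested genes (0.23); Pcdha8, Pcdhgb4 and, just under 0, Pcdhga12 are negative in both experiments.

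The alternative alpha members, each with its own adhesive ectodomain joined to the common alpha tail, were low and close in level. In IgG their mean levels lay between 0.169 and 1.19 FPKM. Pcdha12 had the highest of these levels, with 3.46 and 2.85 FPKM in the Cpeb4 libraries of experiments 1 and 2 and 1.25 and 1.13 FPKM in IgG (567, 302, 194 and 163 reads). Both Cpeb4 libraries were above both IgG libraries, by 2.65-fold on average. On the limma scale the log2 difference was 0.92 (SE 0.15, limma adjusted p = 0.000113). Pcdha9 was at 2.52 and 2.03 FPKM with Cpeb4 and at 1.006 and 0.711 with IgG, a limma log2 difference of 0.82 (SE 0.16, limma adjusted p = 0.000542). Both antibodies had the higher level in experiment 1, and the groups did not overlap.

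Pcdha3 was at 2.16 and 2.28 FPKM with Cpeb4 and 0.892 and 0.837 with IgG, and Pcdha5 at 2.17 and 2.20 with Cpeb4 and 0.986 and 0.779 with IgG. Both showed little spread within the Cpeb4 pair and no overlap with IgG. Their limma log2 fold changes were 0.79 (SE 0.16, limma adjusted p = 0.000759) and 0.76 (SE 0.16, limma adjusted p = 0.00108). Pcdha2, Pcdha6, Pcdha7 and the Pcdha11 row ENSMUSG00000007440.10 were also called higher, at limma log2 fold changes of 0.77, 0.70, 0.57 and 0.58. All of these, like Pcdha3 and Pcdha5, passed the filter only through their Cpeb4 libraries, in which they were high. Pcdha1 and Pcdha4, the lowest alpha members in IgG (19 to 31 reads a library), did not reach the filter. Their plain ratios were log2 1.55 and 1.78, among the higher ones of the cluster. The second Pcdha11 row, ENSMUSG00000102206.5, had 32 to 65 reads a library and a log2 ratio of 0.53, with 0.11 in experiment 1 and 1.036 in experiment 2.

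Pcdha8 went the other way from every other alpha member. It was at 0.323 and 0.330 FPKM with Cpeb4 and at 0.594 and 0.497 with IgG, on 53, 35, 92 and 72 reads. Both Cpeb4 values were below both IgG values, at a log2 ratio of -0.74. As a share of all alpha reads, Pcdha8 gave 0.788% (95% Wilson interval 0.603 to 1.029) and 0.946% (0.681 to 1.31) in the Cpeb4 libraries. In the IgG libraries its share was 3.51% (2.87 to 4.29) and 3.18% (2.54 to 3.99). The shares do not depend on how the libraries are scaled, and their intervals, which cover counting error only, did not overlap between antibodies. Pcdha8 did not reach the filter of the main test. In limma-voom on the recovered reads, an alternative chosen after seeing the data, it was lower at log2 -0.74 (SE 0.28, limma adjusted p = 0.0238). In the authors' deposited table it was not called (log2 -0.75, SE 0.48, adjusted p = 0.27).

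Among the C-type alpha members, Pcdhac2, which serotonergic axons use for their spacing, was the highest member of its cluster. It was at 16.5 and 13.9 FPKM with Cpeb4 and at 6.54 and 6.12 with IgG, on 2980, 1628, 1118 and 977 reads. The ratio was 2.4-fold, and the limma log2 difference of 1.14 (SE 0.12, limma adjusted p = 1.69e-06) was the largest of all members tested. This rank holds on the limma scale, which shrinks the differences of lower members more. The largest plain ratio was that of Pcdhb2, 3.83-fold. Pcdhac2 gave 44.3% and 44.0% of alpha reads in the Cpeb4 libraries and 42.7% and 43.2% in the IgG libraries, with intervals that overlapped. Its part of the alpha reads was thus nearly the same in the precipitates of both antibodies, while that of Pcdha8 was not. Pcdhac1 was at 1.63 and 1.34 FPKM with Cpeb4 and 0.610 and 0.755 with IgG (limma log2 0.56, SE 0.18, limma adjusted p = 0.0143). It passed the filter only through its Cpeb4 libraries. The Pcdhac1 call was lost under each of 4 other scalings (limma adjusted p from 0.0516 to 0.133), with no filter (0.117), and without Cpeb4 replicate 1 (0.0539) or IgG replicate 1 (0.0957).

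Beta protocadherins, which bind like the others but have no shared cytoplasmic exons, covered a wider range of levels than the alternative alpha members. In IgG they lay between 0.153 FPKM for Pcdhb1 and 4.29 for Pcdhb7. Pcdhb7 was at 7.84 and 7.74 FPKM with Cpeb4 and at 4.32 and 4.26 with IgG, a ratio of 1.82-fold with little spread in either pair (limma log2 0.73, SE 0.13, limma adjusted p = 0.000183). Pcdhb20 was at 6.19 and 6.71 FPKM with Cpeb4 and 3.81 and 2.69 with IgG (limma log2 0.82, SE 0.15, limma adjusted p = 0.000206). Its IgG libraries differed from each other more than its Cpeb4 libraries did, yet the groups did not overlap. Pcdhb3 was at 2.97 and 3.78 FPKM with Cpeb4 and 1.58 and 1.35 with IgG (limma log2 0.82, SE 0.16, limma adjusted p = 0.00041). Pcdhb2 had the largest plain ratio of all members, 3.83-fold, at 1.41 and 1.36 FPKM with Cpeb4 and 0.318 and 0.406 with IgG (122, 76, 26 and 31 reads). It passed the filter only through its Cpeb4 libraries, and its limma log2 difference was 0.81 (SE 0.18, limma adjusted p = 0.00136).

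Pcdhb16 was at 4.49 and 6.36 FPKM with Cpeb4 and 2.75 and 3.15 with IgG, and Pcdhb17 at 4.49 and 6.11 with Cpeb4 and 3.31 and 3.32 with IgG. In both, the Cpeb4 library of experiment 2 was well above that of experiment 1. Their limma log2 fold changes were 0.69 (SE 0.14, limma adjusted p = 0.000647) and 0.53 (SE 0.14, limma adjusted p = 0.00519). The Pcdhb17 call was lost under the 4 other scalings (limma adjusted p from 0.0757 to 0.504), with no filter (0.0887), and without IgG replicate 1 (0.081) or IgG replicate 2 (0.0804). The Pcdhb16 call was lost with read totals (limma adjusted p = 0.0968) and without IgG replicate 1 (0.0545), and the Pcdhb7 call with read totals (0.0682). The other called beta members, Pcdhb4, Pcdhb5, Pcdhb6, Pcdhb9, Pcdhb10, Pcdhb11, Pcdhb14, Pcdhb19 and Pcdhb21, had limma log2 fold changes between 0.44 and 0.78. Pcdhb8, Pcdhb18 and Pcdhb22 were tested and not called, at limma log2 fold changes of 0.39, 0.39 and 0.29. Like Pcdhb2, the members Pcdhb4, Pcdhb5, Pcdhb14 and Pcdhb18 passed the filter only through their Cpeb4 libraries. Pcdhb12, Pcdhb13 and Pcdhb15, all outside the test, were the beta members whose groups overlapped, at plain log2 ratios of 0.21, 0.12 and 0.38.

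The C-type gamma members led their cluster in level. Pcdhgc3 was at 16.4 and 14.6 FPKM with Cpeb4 and 9.80 and 10.01 with IgG. It was the gamma member called higher, at 1.57-fold (limma log2 0.60, SE 0.12, limma adjusted p = 0.000795). That call was lost with read totals (limma log2 0.12, limma adjusted p = 0.469), upper quartile scaling (0.19, limma adjusted p = 0.222) and median centring (0.29, limma adjusted p = 0.0625). Pcdhgc4, the gamma isoform known to be needed for the survival of cortical interneurons, was at 8.33 and 8.30 FPKM with Cpeb4 and 7.03 and 7.08 with IgG. Each pair lay within a narrow range and the groups did not overlap, but the difference was small and not called (limma log2 0.21, SE 0.13, limma adjusted p = 0.179). Pcdhgc5 was at 3.94 and 4.10 FPKM with Cpeb4 and 3.02 and 3.50 with IgG and was not called (limma log2 0.24, SE 0.14, limma adjusted p = 0.165).

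The alternative gamma-A and gamma-B members, which share the gamma constant exons with the C-type members, were low. In IgG the gamma-A members lay between 0.166 and 1.77 FPKM and the gamma-B members between 0.301 and 2.54. Of 7 gamma-A and 4 gamma-B members tested, 0 were called in either direction with limma, and 1, Pcdhga3, was higher at an unadjusted p under 0.05. In limma-voom, which also took in members under the filter, Pcdhga3, Pcdhga6 and Pcdhgb2 were higher and Pcdhgb4 lower. Pcdhgb7 was the highest, at 3.19 and 3.36 FPKM with Cpeb4 and 2.48 and 2.597 with IgG (limma log2 0.27, SE 0.14, limma adjusted p = 0.125). Pcdhgb6 was at 2.37 and 2.89 FPKM with Cpeb4 and 1.96 and 2.63 with IgG, so that its groups overlapped and each experiment differed from the other by more than the antibodies did. Pcdhga7 was at 2.21 and 2.07 FPKM with Cpeb4 and 1.63 and 1.92 with IgG, Pcdhga6 at 2.20 and 1.87 against 1.42 and 1.39, and Pcdhga8 at 1.65 and 1.97 against 1.56 and 1.51. These groups did not overlap, and the limma log2 fold changes were 0.18, 0.33 and 0.15 with SEs of 0.16. Pcdhga12 at 1.74 and 1.52 against 1.84 and 1.57 FPKM and Pcdhgb5 at 1.09 and 1.06 against 0.988 and 1.14 had limma log2 fold changes of -0.04 and 0.01 (SE 0.16 and 0.17), with overlapping groups.

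Pcdhgb4 was the gamma member with less transcript in both Cpeb4 libraries than in both IgG libraries. It was at 0.866 and 0.875 FPKM with Cpeb4 and 1.31 and 1.22 with IgG, on 124, 81, 178 and 154 reads. With the authors' scaling it was not called (limma log2 -0.28, SE 0.17, limma adjusted p = 0.197). It was called lower under each of 4 other scalings (limma log2 from -0.54 to -0.42, limma adjusted p from 0.00549 to 0.0462) and in limma-voom (log2 -0.54, limma adjusted p = 0.0336). Under those scalings 4025 to 6670 of the 15745 tested genes were called lower, and in limma-voom 16.2% of 30361 genes. Pcdhgb4 passed the filter only through the IgG libraries, in which it was high. In the authors' deposited table it was not called (log2 -0.55, SE 0.34, adjusted p = 0.25). Its share of gamma reads was 1.5% (95% Wilson interval 1.261 to 1.79) and 1.58% (1.28 to 1.96) with Cpeb4 and 3.01% (2.61 to 3.48) and 2.71% (2.32 to 3.17) with IgG. The neighbouring gamma members Pcdhga7 and Pcdhga8 on either side of it did not share this pattern.

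The clusters were then compared inside each library, where the scaling of libraries has no part. Alpha members gave 29.97% (95% Wilson interval 29.4 to 30.6) and 25.8% (25.1 to 26.5) of clustered protocadherin reads in the Cpeb4 libraries of experiments 1 and 2. In the IgG libraries they gave 20.4% (19.7 to 21.1) and 19.4% (18.6 to 20.1). Both Cpeb4 shares were above both IgG shares, and the intervals of the Cpeb4 libraries did not overlap each other either. Gamma members gave 36.8% and 35.7% with Cpeb4 and 45.9% and 48.6% with IgG, with no overlap. Beta members gave 33.3% and 38.5% with Cpeb4 and 33.8% and 32.1% with IgG, and here the groups overlapped. With 2 libraries against 2, an exact permutation test cannot reach 0.05, and none was run. These intervals cover only the counting error of independent reads. Amplified reads without molecular identifiers are not independent molecules, so the intervals can be too narrow.

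**Figure D3:**
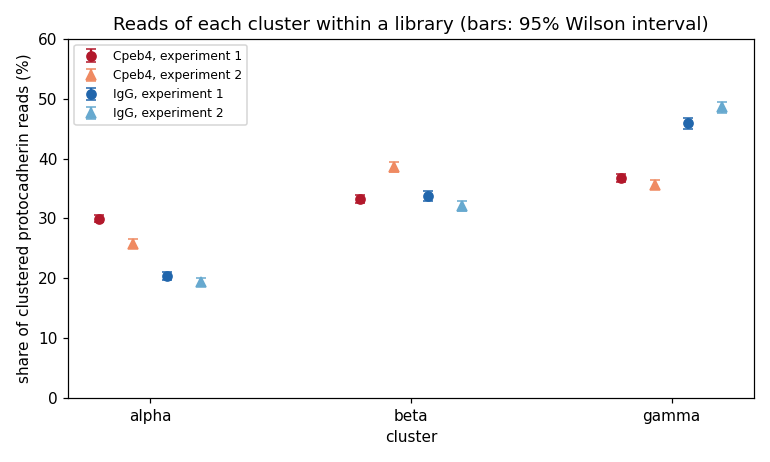
Share (%) of all clustered protocadherin reads that fell on alpha, beta and gamma members in each library (reds, Cpeb4; blues, IgG; circles, experiment 1; triangles, experiment 2; bars, 95% Wilson intervals). Alpha shares are 25.8% to 29.97% with Cpeb4 and 19.4% to 20.4% with IgG, gamma shares 35.7% to 36.8% and 45.9% to 48.6%, and the beta shares of the antibodies overlap.

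Put as ratios of reads, there were 0.815 and 0.724 alpha reads per gamma read with Cpeb4 and 0.444 and 0.398 with IgG. Leaving out the 5 C-type members gave 0.889 and 0.786 with Cpeb4 and 0.462 and 0.406 with IgG, so the shift from gamma to alpha was as large without the most abundant members. Beta reads per gamma read were 0.904 and 1.08 with Cpeb4 and 0.736 and 0.660 with IgG. Alpha reads per beta read were 0.902 and 0.670 with Cpeb4 and 0.602 and 0.603 with IgG. The alpha over beta ratio was thus far above IgG in experiment 1 and slightly above it in experiment 2. Between the abundant C-type members of the alpha and gamma arrays, there were 2.32 and 1.97 Pcdhac2 reads per Pcdhgc4 read with Cpeb4 and 1.09 and 1.012 with IgG.

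The size of each cluster's difference from IgG depended on the scaling, and for gamma so did its direction. The median limma log2 fold change of the tested members was 0.76 for alpha, 0.59 for beta and 0.19 for gamma with the authors' scaling, where the median of all tested genes was 0.19. These medians are a description and rest in part on the filter, which 7 of the 10 alpha and 5 of the 18 beta members tested passed only through the Cpeb4 libraries. Scaling by read totals gave cluster medians of 0.47, 0.24 and -0.17 and a median of -0.24 over all tested genes, and turned the calls over all tested genes from 6106 higher and 1822 lower into 2760 higher and 6670 lower. The alpha and beta medians were above 0 under the authors' scaling, read totals, upper quartile, trimmed mean of M-values and median centring, and the gamma median was above 0 under the authors' scaling and below 0 under the other 4. Relative to the median of all tested genes, alpha stood 0.58 to 0.71 higher, beta 0.41 to 0.48 higher and gamma 0.01 to 0.07 higher over the 5 scalings. These distances also depended on which genes were taken in. With no filter and all 58 members, alpha stood 0.70 higher, beta 0.58 higher and gamma 0.21 higher than the median of 46911 genes. In limma-voom they stood 1.41, 0.99 and 0.44 higher than the median of 30361 genes. Members called higher under all 5 scalings were the alpha members Pcdha2, Pcdha3, Pcdha5, Pcdha6, Pcdha9, Pcdha12 and Pcdhac2 and the beta members Pcdhb2, Pcdhb3, Pcdhb11, Pcdhb19 and Pcdhb20, which makes 12 of the 26. Of these, Pcdha2, Pcdha3, Pcdha5, Pcdha6 and Pcdhb2 passed the filter only through their Cpeb4 libraries, and every scaling used the same filtered set. Of all tested genes, 17.5% to 38.8% were called higher under the single scalings, and the share higher under all 5 is not given here.

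**Figure D4:**
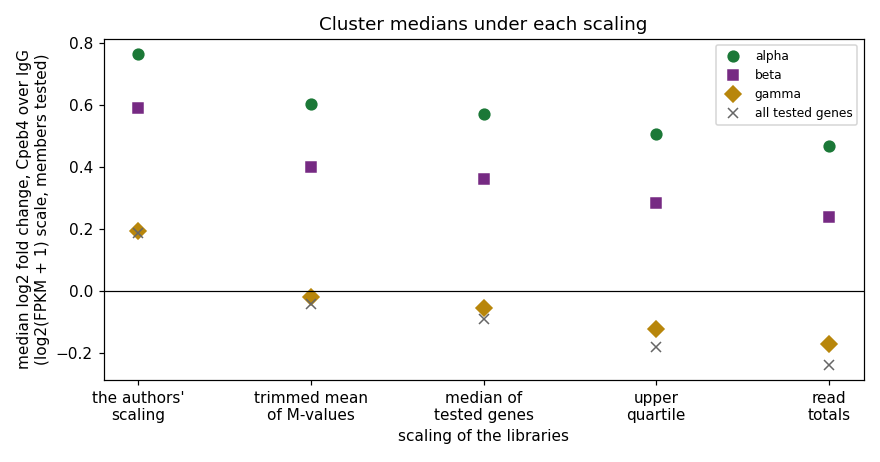
Median limma log2 fold change (Cpeb4 over IgG, log2(FPKM + 1) scale) of the alpha, beta and gamma members tested and of all tested genes (grey crosses) under 5 scalings of the libraries; 7 alpha and 5 beta members are in the set only through their Cpeb4 levels. Alpha and beta medians stay above 0, from 0.76 to 0.47 and from 0.59 to 0.24, while gamma and all tested genes fall from 0.19 to -0.17 and from 0.19 to -0.24.

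Relations across members were described from the same libraries that the selection used, so they are no independent check of it. In IgG, levels were reproducible between the experiments (Spearman rho 0.96 over the 58 members, which share libraries). The Cpeb4 over IgG ratios of the experiments had a rho of 0.76 over all members, and of 0.39 within alpha, 0.55 within beta and 0.71 within gamma. Ratio and gene length had a rho of 0.17 over all members and of -0.21, -0.08 and -0.02 within alpha, beta and gamma. Ratio and IgG level had a rho of -0.18 over all members. The IgG level is also the denominator of the ratio, so error in it pulls this rho down by construction. Position along the array and IgG level had rhos of 0.38, 0.36 and 0.50 within the clusters, with the highest levels of the alpha and gamma arrays in C-type members at the 3′ ends.

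The experiments were also compared within each antibody. Between the Cpeb4 libraries, 10 of 14 alpha members were higher in experiment 1, with a median log2 ratio of experiment 1 to experiment 2 of 0.28. Of the beta members 6 of 22 were higher in experiment 1, with a median of -0.15, and 13 of 22 gamma members were higher in experiment 1 (median 0.06). Over all tested genes, 46.7% were higher in Cpeb4 experiment 1 (median -0.02). Between the IgG libraries, 10 alpha, 14 beta and 10 gamma members were higher in experiment 1, with medians of 0.13, 0.13 and -0.02, where 55.4% of all tested genes were. In the limma fit, 0 of the 42 members tested differed between experiments at an adjusted p under 0.05, against 0.267% of all tested genes. At an unadjusted p under 0.05 these were 0 members, against 4.43% of all tested genes. The experiment term of this fit is common to both antibodies, so opposite differences cancel in it. It therefore cannot decide on differences within the Cpeb4 libraries alone.

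**Figure D5:**
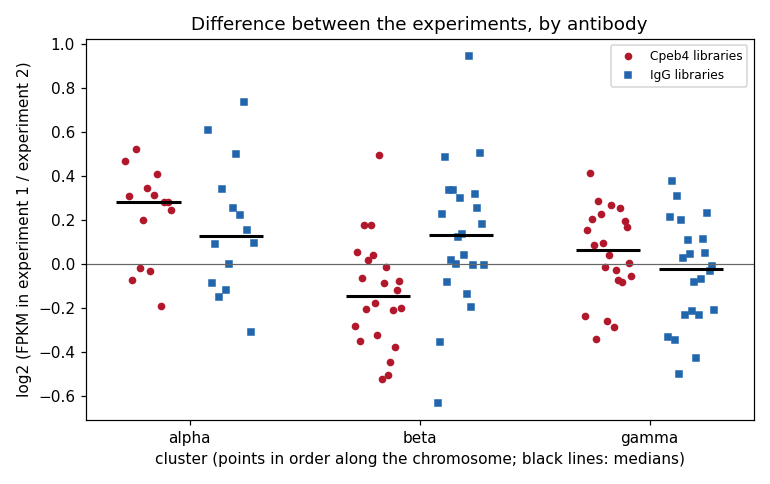
Log2 ratio of FPKM in experiment 1 to experiment 2 for each member, in the Cpeb4 libraries (red circles) and the IgG libraries (blue squares), by cluster; black lines are medians. In the Cpeb4 libraries the medians are 0.28 for alpha, -0.15 for beta and 0.06 for gamma members.

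Related genes were described from lists written for this purpose. With the authors' scaling, their counts stand against 38.8% of all tested genes called higher and 11.6% called lower. For counts under all 5 scalings the share of all tested genes is not given. It can be no more than the 17.5% called higher with read totals. The non-clustered protocadherins, adhesion proteins encoded outside the arrays with their own 3′ ends, had 9 of 11 tested members called higher and 0 lower, 8 of them higher under all 5 scalings, with a median limma log2 fold change of 0.97. Pcdh18, Pcdh17 and Pcdh9 had limma log2 fold changes of 1.48, 1.20 and 1.10 (SE 0.12 each, limma adjusted p from 1.27e-07 to 2.17e-06). Of 21 classical and atypical cadherins tested, 9 were higher (6 under all 5 scalings) and 2 lower, with a median of 0.16 that was below 0 with other scalings. Cdh12, Cdh6 and Cdh9 had limma log2 fold changes of 1.66, 1.263 and 1.23. Genes of promoter choice and chromatin at the arrays had 13 of 17 higher and 3 lower, with 9 of them higher under all 5 scalings, and a median from 0.46 to 0.87 over these. Among them were the cohesin subunit Stag2 at 1.64 and the insulator protein Ctcf, which loops array promoters to their enhancers, at 1.19. Another cohesin subunit, Smc1a, was among the 3 lower, at -0.45. Protocadherin partners inside the cell and in its membrane had 15 of 21 higher and 2 lower. Of these partners 6 were higher under all 5 scalings, over which the list median ran from 0.12 to 0.61. WAVE complex members went both ways: Abi2 and Abi1 were at 1.68 and 1.62, and the 2 lower genes, Wasf3 and Brk1, at -0.80 and -0.50. The postsynaptic neuroligin Nlgn1 was at 1.29. The lower calls of these lists, 2 cadherins, 3 chromatin genes and 2 partners, all held under the 5 scalings.

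Transcripts of the antibody's target and of the cell types of the tissue were checked in the same libraries. The marker counts stand against 38.8% of all tested genes called higher and 11.6% called lower with the authors' scaling. Under all 5 scalings no more than 17.5% of all tested genes can be higher, the share with read totals. Cpeb4 itself was at 26.7 and 38.2 FPKM with Cpeb4 and 9.04 and 9.66 with IgG (limma log2 1.67, SE 0.13, limma adjusted p = 9.59e-08). Markers of neuroblasts (5 of 8 higher, 0 lower) and of neural stem cells and astrocytes (5 of 8 higher, 1 lower), summed to 718 to 750 and 1145 to 1244 FPKM with Cpeb4 and to 480 to 482 and 674 to 702 with IgG. Mature neuron markers (4 of 7 tested higher, 0 lower) summed to 373 to 424 FPKM with Cpeb4 and 261 to 269 with IgG, and oligodendrocyte markers (5 of 6 higher, 0 lower) to 446 to 470 and 302 to 316. Of the oligodendrocyte genes called higher 0 held under all 5 scalings, against 4 of the neuroblast, 3 of the stem cell and astrocyte and 3 of the mature neuron genes called higher. Microglia (1 of 6 higher, 2 lower), endothelial (0 of 4 tested higher, 1 lower), ependymal (0 of 5 higher, 2 lower) and blood markers (0 of 3 higher, 3 lower) summed to 143 to 145, 25.3 to 32.5, 42.7 to 49.9 and 141 to 159 FPKM with Cpeb4. In IgG these lists summed to 122 to 130, 32.3 to 34.3, 58.9 to 60.5 and 209 to 231 FPKM. All lower calls of the marker lists held under the 5 scalings, as did the 1 microglia gene called higher. The authors' scaling had the fewest genes called lower of the 5, 1822 of 15745. Of the markers listed, 0 were at 0 in all libraries. The sums of the neuroblast, stem cell and astrocyte, mature neuron and oligodendrocyte lists were thus higher in both Cpeb4 libraries with the authors' scaling, and those of the ependymal and blood lists lower. Summed FPKM over all genes were also higher with Cpeb4, at 359735 and 383859 against 307955 and 302281 with IgG. The microglia sums included P2ry12 at 54.5 and 66.5 FPKM with Cpeb4 and 26.4 and 23.7 with IgG, while the list's median limma log2 fold change was -0.08. Their part in the protocadherin values was not tested.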

How the data were processed

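Per the labels' protocols, RNA from Cpeb4 and IgG immunoprecipitates was isolated with a MAGNA RIP kit and made into cDNA with SMART-Seq v4 and into libraries with Nextera XT. The submitters' processing notes list, without roles, mm10, DESeq2 1.26.0, HTSeq 0.6.1p2, STAR 2.6.0c, Trim Galore 0.5.0 and FastQC 0.11.5. How reads in shared exons were counted is not given in the sources used here. Per the file headers, the authors deposited FPKM for each library. Per the file headers, the authors also deposited their own comparison, with a mean level (a signal, reads over size factors), a log2 fold change and its error, a test score, a p-value and an adjusted p-value.

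Reads were recovered by joining FPKM steps to the authors' mean level, and 100% of values came out whole within 0.01 read. This covers the 30361 genes with such a level, and other genes are not in the read totals. FPKM were tested with limma 3.58.1 (R 4.3.3) on log2(FPKM + 1), with a trended prior, antibody and experiment as terms, and two-sided tests. The fit had 1 residual degree of freedom and 14.6 from the prior. The experiment numbers come from the labels, and deviations of same-numbered libraries correlated at 0.0024. The fitting steps were tested on simulated data, in which the share of false calls was above the threshold, so calls near it are uncertain. Named genes were, per subgroup, the 4 with the highest mean FPKM and the 3 called with the largest change, all C-type members, Cpeb4, and the 3 of each list with the smallest p. One gene that this rule names is not reported here. Other members were named after their values were seen. Alternatives were other pseudocounts, filters and scalings, leaving out each library, and limma-voom on recovered reads. Members and lists were chosen with earlier results of these data known.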

Additional observations from a re-analysis of the deposited data

How the results depend on the processing

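The direction of alpha and beta medians held under every alternative, and that of gamma did not. Of 26 members called higher, the count was 12 with read totals, 14 with upper quartile scaling, 16 with median centring and 14 with no filter, and it was 19 to 26 leaving out each library. For alpha it was 6 with no filter and 8 to 10 leaving out each library, and for beta 5 with read totals, 7 with upper quartile scaling, 9 with median centring, 7 with no filter and 10 to 14 leaving out each library. For gamma it was 0 with read totals, upper quartile scaling and median centring, 4 with limma-voom on recovered reads and 1 to 3 leaving out each library (3 without Cpeb4 replicate 2). Members called lower numbered 2 with read totals, 1 with upper quartile scaling, 1 with trimmed mean of M-values, 1 with median centring and 2 with limma-voom. Calls over all tested genes moved too. The share called higher fell from 38.8% to 17.5% with read totals, 19.6% with upper quartile scaling and 23.6% with median centring. With no filter it was 8.35% of 46911 genes, and with limma-voom 21.7% of 30361. Genes called lower rose from 1822 of 15745 to 6670 with read totals and 5830 with upper quartile scaling. They numbered 4025 with trimmed mean of M-values and 4715 with median centring. In limma-voom they were 4922 of 30361.

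The alpha median of 0.76 became 1.23 with a pseudocount of 0.1, 0.64 with no filter, 0.47 with read totals, 0.51 with upper quartile scaling, 0.60 with trimmed mean of M-values, 0.57 with median centring and 1.28 with limma-voom, and was 0.69 to 0.78 leaving out each library. The beta median of 0.59 became 0.84 with a pseudocount of 0.1, 0.24 with read totals, 0.29 with upper quartile scaling, 0.40 with trimmed mean of M-values, 0.36 with median centring and 0.86 with limma-voom, and was 0.53 to 0.64 leaving out each library. The gamma median of 0.19 became 0.25 with a pseudocount of 0.1, 0.15 with no filter and 0.31 with limma-voom, and was 0.16 to 0.24 leaving out each library. It turned to -0.17 with read totals, -0.12 with upper quartile scaling, -0.0178 with trimmed mean of M-values and -0.0544 with median centring. A smaller pseudocount shrinks low values less by construction, and otherwise the cause was not tested.

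Named members that turned sign were not called with the authors' scaling. In the order read totals, upper quartile, trimmed mean of M-values and median centring, the log2 fold change was -0.16, -0.11, -0.0055 and -0.0433 for Pcdhga7, -0.18, -0.13, -0.0302 and -0.0655 for Pcdhga8, -0.26, -0.225, -0.14 and -0.17 for Pcdhgb5, -0.22, -0.17, -0.0534 and -0.0936 for Pcdhgb6, and -0.25, -0.18, -0.0383 and -0.0887 for Pcdhgc4. Pcdhgc5 was at -0.17 and -0.11 with read totals and upper quartile scaling and -0.0253 with median centring, and Pcdhgb7 at -0.11 and -0.058 with read totals and upper quartile scaling. Leaving out libraries, Pcdhga12 was at 0.0205 without Cpeb4 replicate 2 and 0.0321 without IgG replicate 1, Pcdhgb5 ranged from -0.0492 without IgG replicate 1 to 0.0599 without IgG replicate 2 (-0.0055 without Cpeb4 replicate 1), and Pcdhgb6 was at -0.0022 without IgG replicate 1. Of 299 values of 23 named members, 242 kept their direction and side of the threshold, 20 lost and 7 gained a call, and 30 turned sign.

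Without the experiment as a replicate block, 26 members were called higher and 0 lower, as with it, and the block changed no call of a named member. Leaving out a library also leaves out the block, and the lone library is then assumed to vary like the complete pair. Both planned edgeR alternatives were not run. In their place limma-voom on recovered reads was added after seeing the data. Depth limits the members with the fewest reads, such as Pcdhb1 with 9 to 28 reads a library.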
